A study of Mus musculus with 6 samples.

Results

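The genes described here are 10 that are known mainly from studies of nerve cells: the tubulin Tubb3, the microtubule-associated genes Map1b and Mapt, the stathmins Stmn1, Stmn2, Stmn3 and Stmn4, the growth cone gene Gap43 and the adhesion molecules Nrcam and Ncam1. They are 10 of 19935 genes measured on 6 arrays. Each gene was read from the probe set with exactly 1 gene symbol, and where there were several, from the one with the highest mean over all arrays. The set was chosen by the measured expression values of Tubb3, Stmn2 and Nrcam, which are higher in mice without the Y1 receptor, so every difference of these 10 genes between genotypes is a description and carries no test.

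Osteoblastic cells were compared between 2 Y1KO arrays, from male mice deficient in the Y1 receptor for neuropeptide Y, and 4 WT arrays, from male wild-type mice. Mice of both genotypes carried GFP driven by a 3.6-kb fragment of the rat alpha1(I)-collagen promoter. Stromal cells from the marrow of femora and tibias were cultured for 7 days in control medium, and GFP-positive cells were sorted for RNA. The sources used here give neither the age and strain of the mice, nor the kind of Y1 deletion, nor whether each array is 1 mouse, so the spread between arrays may in part be technical. All expression values are log2 values as deposited, SD is the spread between arrays of a genotype, and a difference is the Y1KO mean less the WT mean in log2 units, with its standard error (SE) from the linear model. Fewer cells of a type and less RNA per cell cannot be told apart in such bulk samples.

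Microtubules are hollow polymers of alpha- and beta-tubulin, and nerve cells depend on them to extend and maintain axons. Tubb3 encodes class III beta-tubulin, a standard marker of young neurons, while stathmins bind free tubulin and promote the shortening of microtubules, and MAP1B and tau, the products of Map1b and Mapt, bind along microtubules and stabilise them. GAP-43 sits at the membrane of growing axon tips. NrCAM and NCAM are cell-surface proteins of the immunoglobulin superfamily that hold axons and other cells together, and NCAM is also made by many cells outside the nervous system.

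Promoter sequences were held in the RefSeq-derived table of GRCm38.p6 for 4 of the 10 genes, Tubb3, Nrcam, Map1b and Stmn3. The 250 bases before the annotated start are shown for Tubb3 and Nrcam, which were higher in Y1KO, and for Map1b, which was not, so that the DNA in front of these starts can be compared. Capitals mark GGGCGG, the letters of a GC box, and CAGCACC, a part of the site bound by REST, the repressor of neuronal genes, each on either strand. The Tubb3 window is chr8:123411303-123411552 on the plus strand, the Nrcam window chr12:44328635-44328884 on the plus strand, and the Map1b window chr13:99516603-99516852 on the minus strand.
Tubb3: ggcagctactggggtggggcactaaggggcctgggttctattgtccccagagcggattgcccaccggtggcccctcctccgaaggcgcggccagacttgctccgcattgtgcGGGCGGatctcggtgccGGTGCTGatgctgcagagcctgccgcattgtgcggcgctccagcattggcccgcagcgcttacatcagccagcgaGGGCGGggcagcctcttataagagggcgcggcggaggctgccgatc
Nrcam: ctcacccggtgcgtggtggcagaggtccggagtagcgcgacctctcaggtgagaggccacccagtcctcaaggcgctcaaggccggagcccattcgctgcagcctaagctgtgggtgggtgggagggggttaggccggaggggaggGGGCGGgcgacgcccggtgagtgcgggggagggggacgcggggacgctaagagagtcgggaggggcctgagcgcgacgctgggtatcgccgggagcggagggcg
Map1b: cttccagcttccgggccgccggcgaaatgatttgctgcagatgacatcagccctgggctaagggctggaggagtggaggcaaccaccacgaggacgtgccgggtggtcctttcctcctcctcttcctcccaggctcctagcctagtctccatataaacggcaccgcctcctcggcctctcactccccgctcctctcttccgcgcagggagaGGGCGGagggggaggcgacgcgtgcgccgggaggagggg

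These windows were rich in G and C, at 68% in Tubb3, 72.4% in Nrcam and 66.4% in Map1b, against a median of 52.4% over all 32851 promoters of the same length. Tubb3 held 21 CpG pairs, Nrcam 25 and Map1b 19, against a median of 6. The fourth promoter, that of Stmn3, had 48.8% G and C and 3 CpG pairs. GGGCGG was found 2 times in Tubb3, 1 time in Nrcam, 1 time in Map1b and 0 times in Stmn3, and 32.7% of all promoters held it. CAGCACC was found in Tubb3, on the minus strand 121 to 115 bases before the start, and in none of the other 3, where 5.73% of all promoters held it. TGACGTCA, the full cAMP response element, was in 0 of the 4 and in 1.55% of all promoters. TATAAA was found in Map1b, 99 to 94 bases before the start, and 12.4% of all promoters held it. The marked stretches did not overlap, and a match is only a match of letters.

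With all 6 arrays, Tubb3 had the largest difference of the 10 genes. It read 8.54 and 8.17 in Y1KO replicates 1 and 2, against 7.15, 6.51, 6.65 and 6.97 in WT replicates 1 to 4. Both Y1KO arrays lay above all WT arrays, with a gap of 1.02 between the lower Y1KO and the highest WT value. The means were 8.35 ± 0.26 (SD, n = 2) in Y1KO and 6.82 ± 0.29 (SD, n = 4) in WT, a difference of 1.53 (SE 0.19) or 2.9-fold.

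The other microtubule genes of the set stood at nearly the same level in both genotypes. Map1b read 8.64 and 8.26 in Y1KO, against 8.40, 8.75, 8.40 and 7.98 in WT. Its groups overlapped, and the difference of 0.06 (SE 0.20) was smaller than the spread between WT arrays, whose SD was 0.31. Mapt read 4.79 and 4.79 in Y1KO, against 4.998, 4.56, 4.76 and 4.78 in WT. The Y1KO arrays lay inside the WT range, with a difference of 0.01 (SE 0.12). The Mapt values stood at percentile 36.6 of all genes, in the lower part of the array's range, where a difference can be understated.

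The stathmins did not move together. Stmn2 encodes a membrane-bound stathmin of growing axons, and it read 6.94 and 6.97 in Y1KO, against 6.25, 4.82, 5.61 and 5.29 in WT. The Y1KO arrays nearly coincided, while the WT arrays spread over 1.43, and the gap between the groups was 0.69. The mean was 6.96 ± 0.02 (SD, n = 2) in Y1KO and 5.49 ± 0.60 (SD, n = 4) in WT, a difference of 1.47 (SE 0.32) or 2.76-fold. Leaving out 1 array in turn moved the difference between 1.24, without WT replicate 2, and 1.72, without WT replicate 1. The Stmn2 difference exceeded that of Tubb3 without WT replicate 1 or 3, and without Y1KO replicate 1, where Stmn2 was at 1.48 and Tubb3 at 1.35.

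Stmn1, the stathmin of dividing cells in many tissues, went the other way. It read 8.69 and 8.61 in Y1KO, against 9.65, 9.57, 10.34 and 9.63 in WT. Both Y1KO arrays lay below all WT arrays by at least 0.88, and the difference was -1.15 (SE 0.20). WT replicate 3 stood apart from the other WT arrays, and without it the difference was -0.97. A second probe set of Stmn1 gave 8.66 and 8.56 in Y1KO and 9.58, 9.52, 10.32 and 9.58 in WT, with the same high array and a difference of -1.14.

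Stmn3 and Stmn4, a pair of stathmins found mainly in neurons, differed little. Stmn4 read 5.82 and 5.73 in Y1KO, against 5.62, 5.68, 5.35 and 5.65 in WT. The groups did not overlap, but only by 0.05, and the difference was 0.20 (SE 0.11). Stmn3 read 4.75 and 4.81 in Y1KO, against 4.96, 4.78, 4.96 and 5.12 in WT, and the groups overlapped. Its difference was -0.17 (SE 0.11), and its second, dimmer probe set differed the opposite way, by 0.12, so no direction is given for Stmn3. At percentiles 49.6 and 38.5 of all genes, Stmn4 and Stmn3 lay below the median of the array's range.

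Gap43 showed no difference between the means. It read 4.40 and 4.71 in Y1KO, against 4.55, 4.77, 4.38 and 4.52 in WT. The Y1KO arrays lay inside the WT range, and the SE of the difference was 0.13. At percentile 32.4 it had the lowest place of the 10 genes in the array's range.

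Both adhesion genes were higher in Y1KO, by smaller amounts than Tubb3 and Stmn2. Nrcam read 5.77 and 5.88 in Y1KO, against 5.12, 5.13, 5.21 and 5.48 in WT. The groups were 0.29 apart, and the means of 5.83 ± 0.08 (SD, n = 2) in Y1KO and 5.24 ± 0.17 (SD, n = 4) in WT differed by 0.59 (SE 0.12) or 1.5-fold. Ncam1 read 8.51 and 8.71 in Y1KO, against 8.09, 8.39, 8.10 and 7.78 in WT. Its groups were 0.12 apart, and the difference was 0.52 (SE 0.16) or 1.43-fold. The Nrcam values stood at percentile 46.9 and those of Ncam1 at percentile 85.6 of all genes.

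**Figure D1:**
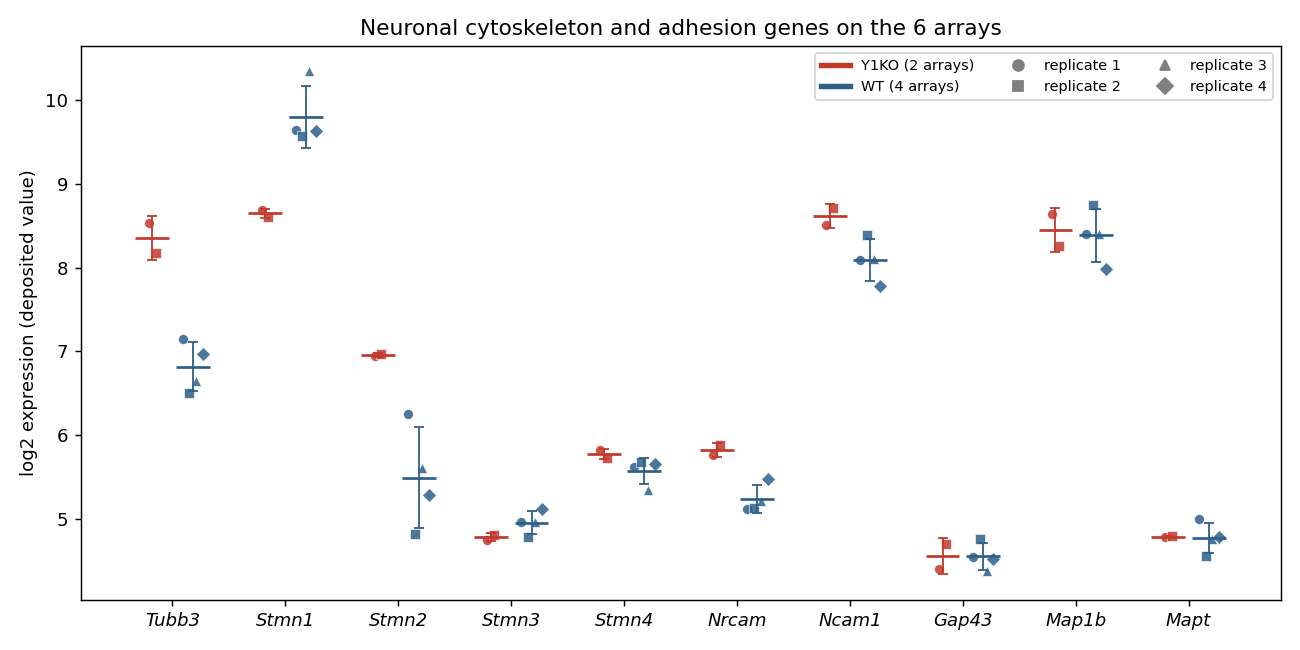
Deposited log2 expression (vertical axis) of the 10 genes on each array, with Y1KO in red to the left of WT in blue. Points are arrays, horizontal lines are means and vertical bars are SD; Tubb3, Stmn2, Nrcam, Ncam1 and Stmn4 lie higher in both Y1KO arrays than in any WT array, Stmn1 lies lower, and the other 4 genes overlap.

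Of the 10 genes, 5 had both Y1KO arrays above all WT arrays and 1 had both below, where 17.5% and 17.3% of all genes did so, 34.8% in either direction. In the linear model over all genes, 12.7% were called at a limma adjusted p under 0.05, 6.1% higher and 6.64% lower in Y1KO. Among the 10 genes, Tubb3, Stmn2 and Nrcam were called higher and Stmn1 lower. Since the choice of genes used this contrast, nothing is read from these counts, nor from any call of the 10 genes in the alternative runs. A run without Y1KO replicate 1 or 2, here and below, holds 1 Y1KO array, so no spread within Y1KO enters it. Without Y1KO replicate 1 the differences of Tubb3, Stmn2, Nrcam and Stmn1 were 1.35, 1.48, 0.65 and -1.19. Without Y1KO replicate 2 they were 1.72, 1.45, 0.53 and -1.11. None of these 4 genes was called without moderation of the variance. Stmn2, Nrcam and Stmn1 also lost their calls without Y1KO replicate 1, and likewise without Y1KO replicate 2. Stmn2 was also not called with the trend and robust options, while Ncam1 was called higher with those options, with either filter on dim genes and without WT replicate 2. The median difference over the 10 genes was 0.13, beside 0.01 over all genes.

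The WT arrays also differed from each other, in directions that varied between the 10 genes. WT replicate 2 held the lowest WT value of 5 of the 10 genes, Tubb3, Mapt, Stmn1, Stmn2 and Stmn3, and the highest of 4, Map1b, Stmn4, Gap43 and Ncam1. WT replicate 1 held the highest Tubb3 and Stmn2 values. Ncam1 and Map1b both had their highest WT value in replicate 2 and their lowest in replicate 4. In WT replicate 2 the mean over 9 osteoblast markers was also the lowest, at 10.61, against 11.21 to 11.58 in the other WT arrays and 11.90 and 12.00 in Y1KO replicates 1 and 2. The part of these markers in the values of Tubb3 and Stmn2 was not tested. Without WT replicate 2 the Tubb3 difference was 1.43 and the Stmn2 difference 1.24.

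Several other members of the tubulin family fell in Y1KO, while Tubb3 was higher. Of 15 tubulin genes other than Tubb3, 5 fell and 0 rose (0 higher at an unadjusted p under 0.05), with a median difference of -0.07, where 6.64% of all genes fell. Tubb2b, a beta-tubulin abundant in the developing brain, fell to 5.95 ± 0.08 (SD, n = 2) in Y1KO, against 6.95 ± 0.31 (SD, n = 4) in WT, a difference of -0.997 (limma adjusted p = 0.00803). Tubb6, a beta-tubulin of many non-neuronal cells, fell by 0.89 (limma adjusted p = 0.00229). Tubb2a and the broadly expressed Tubb5 fell by 0.53 and 0.47, and the epsilon-tubulin gene Tube1, whose product acts at centrioles, fell by 0.57. The remaining beta-tubulins that were measured did not pass: Tubb4a differed by 0.23 and the platelet tubulin Tubb1 by -0.20. Without Y1KO replicate 1, and likewise without Y1KO replicate 2, Tubb6 was the 1 tubulin still called. Genes of cell division fell in the same arrays, and their part in the tubulin differences was not tested. Tubulin genes are alike in sequence, and whether probes of one also bind transcripts of another was not tested.

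**Figure D2:**
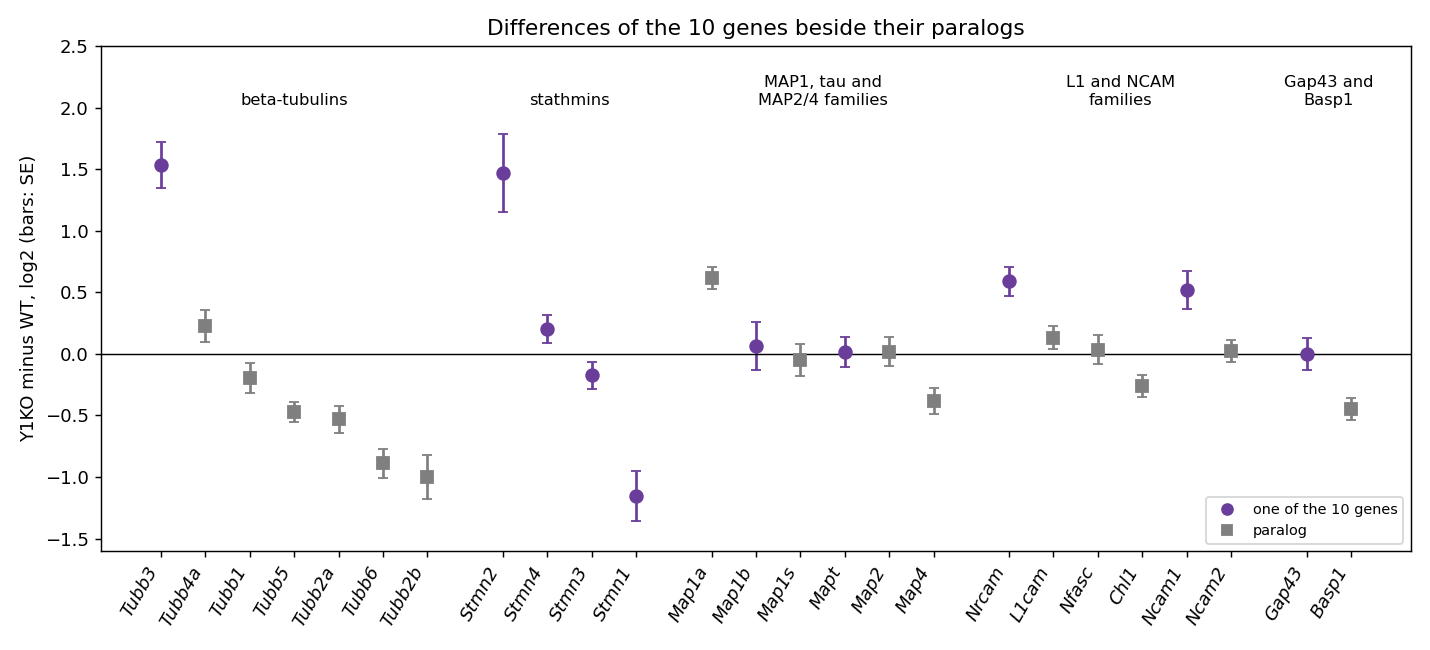
Difference between Y1KO and WT (log2, vertical axis) for the 10 genes (purple circles) and their measured paralogs (grey squares), with bars for the SE. Tubb3 at 1.53 stands above zero while Tubb5, Tubb2a, Tubb6 and Tubb2b lie between -0.47 and -0.997, and Stmn2 at 1.47 and Stmn1 at -1.15 lie on opposite sides.

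Among microtubule-associated genes, a few were higher. Of 33 measured, 4 rose and 1 fell, with a median difference of 0.03, where 6.1% of all genes rose. Map1a, the relative of Map1b that prevails in mature neurons, rose to 8.07 ± 0.07 (SD, n = 2) in Y1KO, against 7.46 ± 0.08 (SD, n = 4) in WT, a difference of 0.62 (limma adjusted p = 0.0036). Mapre3, which encodes an end-binding protein of growing microtubule tips, rose by 0.62 and its relative Mapre2 by 0.44. The doublecortin-like kinase gene Dclk2 rose by 0.51, and Clasp1, whose product stabilises microtubule ends, fell by 0.41. Map1s and the dendritic Map2 did not pass, at -0.05 and 0.02, and Map4 was at -0.38 (limma adjusted p = 0.0503). Map1a and Mapre3 were still called without either Y1KO array, whereas Mapre2 and Clasp1 were called in neither case, and Dclk2 lost its call without Y1KO replicate 1. Clasp1 was also not called without WT replicate 1 or 2, nor with median centring. Map4 passed as lower without WT replicate 4, with quantile normalization, with either filter on dim genes and with the trend and robust options.

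Among genes of axonal transport and filaments, the kinesin gene Kif21a changed most. Of 22 motor genes, 3 rose and 1 fell, where 6.1% of all genes rose and 6.64% fell, which is also the background for the filament and collapsin counts. Kif21a rose to 7.35 ± 0.07 (SD, n = 2) in Y1KO, against 6.28 ± 0.15 (SD, n = 4) in WT, a difference of 1.08 (limma adjusted p = 0.000963) that passed in every alternative run. The dynein intermediate chain gene Dync1i1 rose by 0.61, the dynein regulator gene Ndel1 by 0.42, and the kinesin gene Kif3a fell by 0.40. Of 10 intermediate filament genes, which include the neurofilaments Nefl, Nefm and Nefh, 1 rose and 0 fell (0 lower at an unadjusted p under 0.05 by limma); the riser was Synm, the muscle-type filament gene synemin, at 0.55. Of the 5 collapsin response mediator genes, 0 rose (1 at an unadjusted p under 0.05 by limma) and Dpysl3 fell by 0.58. Ndel1, Kif3a, Synm and Dpysl3 lost their calls without either Y1KO array, and Dync1i1 without Y1KO replicate 2. Kif3a also lost it without WT replicate 2 or 4, and Ndel1 without WT replicate 4.

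The kinases and phosphatases of tau and stathmins, listed with regulators of these enzymes, held 2 called genes among 27, beside 12.7% called over all genes. Mark1, a kinase that detaches tau and related proteins from microtubules, fell to 6.13 ± 0.03 (SD, n = 2) in Y1KO, against 8.04 ± 0.28 (SD, n = 4) in WT, a difference of -1.91 (limma adjusted p = 0.000399). Cdk5r1, the activator of the neuronal kinase CDK5, rose by 0.72 (limma adjusted p = 0.0194), and lost its call without either Y1KO array and with the replicate block. Gap43 relatives and partners held 3 falling genes of 9, where 6.64% of all genes fell, and 0 rising ones (0 at an unadjusted p under 0.05 by limma). Marcks, which like GAP-43 is a membrane-bound substrate of protein kinase C, fell by 1.09, Basp1 by 0.45 and the calmodulin gene Calm3 by 0.37. Without either Y1KO array, Marcks alone of these 3 was called, and Calm3 was also not called without WT replicate 4.

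Other neural adhesion genes of the L1 and immunoglobulin families showed no common direction. Of 26 measured, 2 rose and 1 fell, a share near the 12.7% called over all genes, with a median of 0.01, and 4 of the 26 were brighter than the median gene in WT. Cadm1, which joins cells through its immunoglobulin domains, read 8.47 and 8.77 in Y1KO, against 7.16, 6.48, 7.81 and 7.74 in WT, and rose by 1.32 (limma adjusted p = 0.0331). Sdk2, the sidekick adhesion gene, rose by 0.92, and Mcam, which also marks pericytes, fell by 1.41. The closest relatives of Nrcam did not pass: L1cam was at 0.13, Nfasc at 0.04 and Chl1 at -0.26, and Ncam2 was at 0.02. Cadm1 and Mcam lost their calls without either Y1KO array, and Sdk2 without Y1KO replicate 1. Cadm1 also lost its call without WT replicate 1 and with the trend and robust options.

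The list of NCAM signalling partners and sialylation genes included several genes that rose. Of 10 measured, 4 rose and 1 fell, where 6.1% and 6.64% of all genes did, with a median of 0.02. Fyn, a kinase that associates with NCAM, rose to 9.63 ± 0.24 (SD, n = 2) in Y1KO, against 8.41 ± 0.19 (SD, n = 4) in WT, a difference of 1.22 (limma adjusted p = 0.00152). The receptor gene Fgfr1, the prion protein gene Prnp and the protease gene Adam10 rose by 0.74, 0.52 and 0.52. Gfra1, the gene of a co-receptor for glial cell line-derived neurotrophic factor, fell by 0.39. Leaving out either Y1KO array ended the calls of Fgfr1, Adam10 and Gfra1, leaving out Y1KO replicate 2 ended that of Prnp, and Fyn was called in both cases. Gfra1 also lost its call without WT replicate 1, 3 or 4. Of 16 ankyrin, spectrin and band 4.1 genes, which tie L1-type molecules to the membrane skeleton, 1 rose and 4 fell, against the same background. Epb41l2 rose by 0.41, while Epb41l5, Epb41l4b, Add1 and Epb41l1 fell by 0.60, 0.53, 0.49 and 0.46, and all 5 lost their calls without either Y1KO array. Epb41l1 also lost it without WT replicate 1, Epb41l5 without WT replicate 3 and Epb41l4b without WT replicate 3 or 4, with quantile normalization and with median centring.

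**Figure D3:**
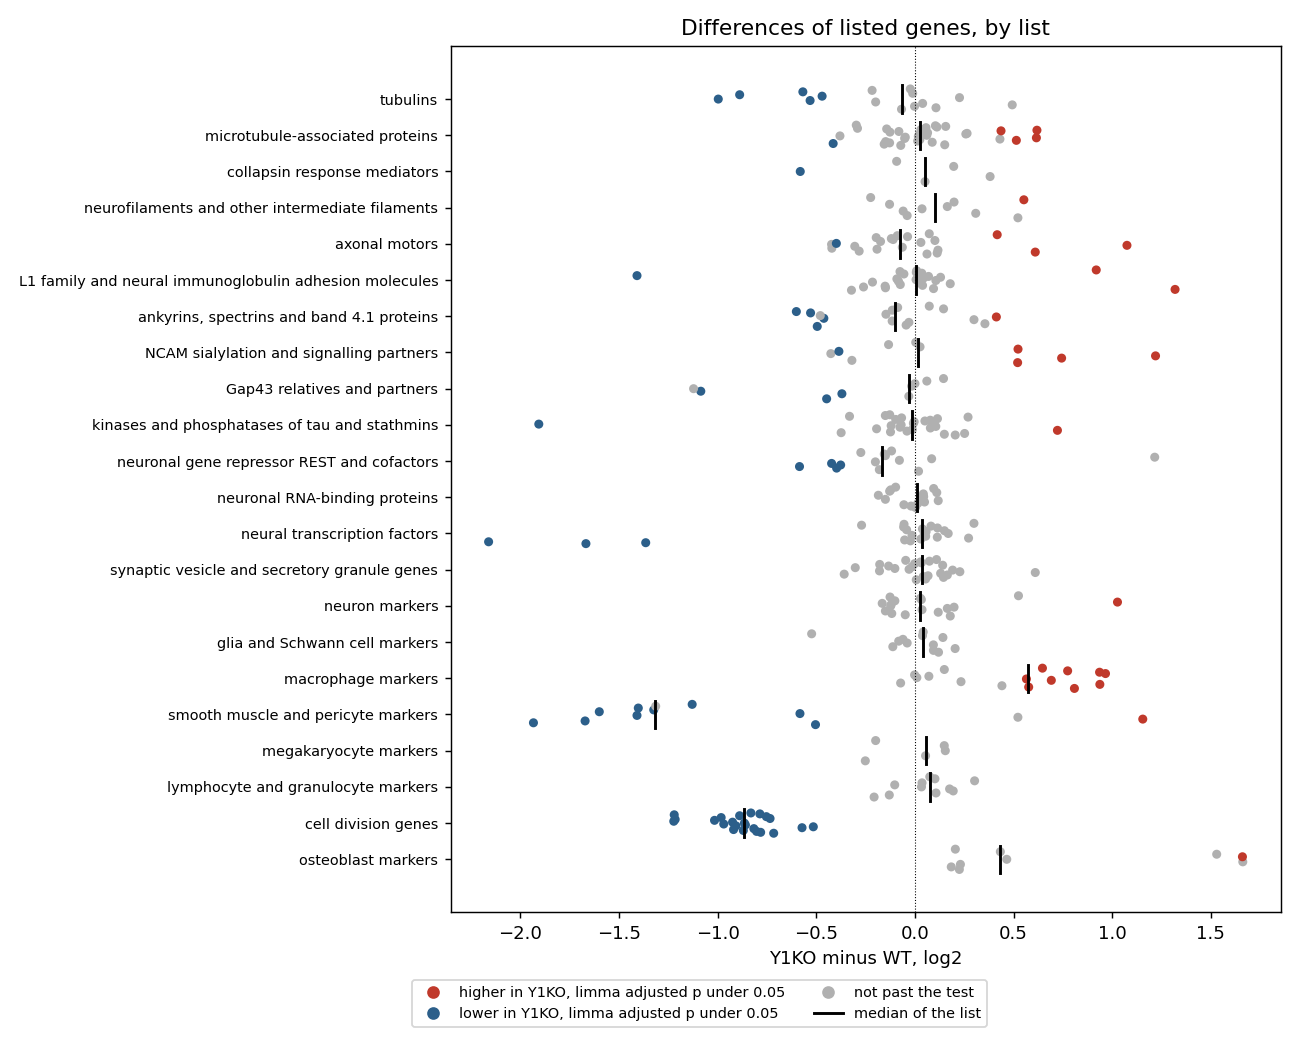
Difference between Y1KO and WT (log2, horizontal axis) for every measured gene of 22 lists, 1 row a list, with red and blue points for genes called higher and lower in Y1KO, grey for genes not past the test and a black line for the list's median. Neuronal RNA-binding, synaptic and glial lists hold 0 called genes, while the smooth muscle and cell division lists lie mostly below zero and the macrophage list above it.

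Most markers of nerve cells themselves were dim. Of 17 neuron markers measured, 1 rose and 0 fell, where 6.1% and 6.64% of all genes did (2 higher and 0 lower at an unadjusted p under 0.05 by limma), and 1 of the 17 was brighter than the median gene in WT. That gene, Uchl1 (named after its values were seen), read 6.99 and 6.54 in Y1KO, against 6.19, 6.34, 5.95 and 6.48 in WT, and its difference of 0.53 did not pass (limma adjusted p = 0.0808). The mean over the list was 4.47 and 4.52 in Y1KO, against 4.42, 4.39, 4.35 and 4.51 in WT, so the genotypes overlapped. Rbfox3, a nuclear marker of neurons, read 4.73 and 4.52 in Y1KO, against 4.81, 4.56, 4.80 and 4.83 in WT. The synaptic gene Snap25 was at -0.10 and the noradrenaline-synthesis gene Th at -0.13, both without passing. The 1 riser was Slc6a2, the noradrenaline transporter gene, which read 6.20 and 6.49 in Y1KO, against 5.41, 4.92, 5.55 and 5.39 in WT (difference 1.03, limma adjusted p = 0.00611). It lost its call without Y1KO replicate 2.

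None of 26 synaptic vesicle and granule genes and none of 16 neuronal RNA-binding genes was called by limma, where 12.7% of all genes were. Only 3 of the 26 and 5 of the 16 were brighter than the median gene in WT, and differences of dim genes can be understated. At an unadjusted p under 0.05, 2 synaptic genes were higher and 2 lower, and 0 RNA-binding genes were higher or lower. Of 12 glia and Schwann cell markers 0 were called by limma (0 higher and 1 lower at an unadjusted p under 0.05), and Sox10 was at 0.04. Of these 12, 3 were brighter than the median gene in WT. REST itself, from the gene Rest, differed by -0.16 (limma adjusted p = 0.504), with 7.81 and 7.66 in Y1KO, against 8.03, 8.01, 7.80 and 7.71 in WT. Of the 14 genes of the REST list, 4 fell and 0 rose (1 higher at an unadjusted p under 0.05 by limma), where 6.64% and 6.1% of all genes did. The REST cofactor gene Rcor2 (named after its values were seen) had the largest difference of the list, 1.22, without passing (limma adjusted p = 0.0595), with 9.07 and 9.08 in Y1KO, against 8.33, 6.84, 8.13 and 8.14 in WT. The list held 1 riser with genes dimmer than percentile 60 left out, with the replicate block and without WT replicate 1 or 2. Ctdspl and Ctdsp2, phosphatases that act with REST, fell by 0.58 and 0.40, and the chromatin enzyme genes Hdac1 and Ehmt2 by 0.42 and 0.38. Ctdsp2, Hdac1 and Ehmt2 lost their calls without either Y1KO array, and Ctdspl without Y1KO replicate 1. Ehmt2 also lost it without WT replicate 1, 2 or 4, with quantile normalization, with median centring and with every probe set tested, and Ctdsp2 without WT replicate 1.

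Several marker lists of other cells moved with genotype in the same arrays, and their part in the differences of the 10 genes was not tested. Over all genes 6.1% rose and 6.64% fell. Of 16 macrophage markers 9 rose and 0 fell, with list means of 5.66 and 6.08 in Y1KO, against 5.42, 5.45, 5.41 and 5.26 in WT; Lyz2, C1qc and Adgre1, genes of macrophages, rose by 0.97, 0.94 and 0.81. With Y1KO replicate 1 left out 9 markers rose, and with Y1KO replicate 2 left out 0 did. Lyz2 and C1qc also lost their calls without WT replicate 4. Of 12 smooth muscle and pericyte markers 9 fell and 1 rose, with list means of 7.73 and 7.65 in Y1KO, against 8.44, 8.71, 8.76 and 8.59 in WT. The contractile genes Actg2, Cnn1 and Myh11 fell by 1.93, 1.67 and 0.58. Cnn1 and Myh11 lost their calls without either Y1KO array, and Myh11 also with the replicate block. The riser was Cspg4 (named after its values were seen), by 1.16 (limma adjusted p = 0.0123), and it lost its call without either Y1KO array. The falling smooth muscle genes numbered 4 without either Y1KO array. All 23 measured cell division genes fell, Mcm4 and Top2a by 1.22 each, with list means of 7.70 and 7.49 in Y1KO, against 8.46, 8.51, 8.50 and 8.40 in WT; 22 fell without Y1KO replicate 1 and 15 without Y1KO replicate 2. Osteoblast markers were high in both genotypes. Of 9 measured, 1 rose and 0 fell (5 higher and 0 lower at an unadjusted p under 0.05 by limma). The 9 differences ran from 0.18 to 1.66, with a median of 0.43. In 8 of the 9, both Y1KO arrays lay above all WT arrays, where 17.5% of all genes did so. The riser, Ifitm5, was at 1.66. It lost its call without Y1KO replicate 1 or 2 or WT replicate 1 or 4, and with the trend and robust options. Col1a1, whose promoter drives the sorting reporter, was at 0.18 without passing. The megakaryocyte list, with 5 measured, and the lymphocyte and granulocyte list, with 11, held 0 genes called by limma. At an unadjusted p under 0.05 by limma, the megakaryocyte list had 0 higher and 1 lower, and the other list 1 higher and 0 lower. Neither list held a gene brighter than the median gene in WT. Itga2b was at 0.05 and Cd3e at 0.11.

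**Figure D4:**
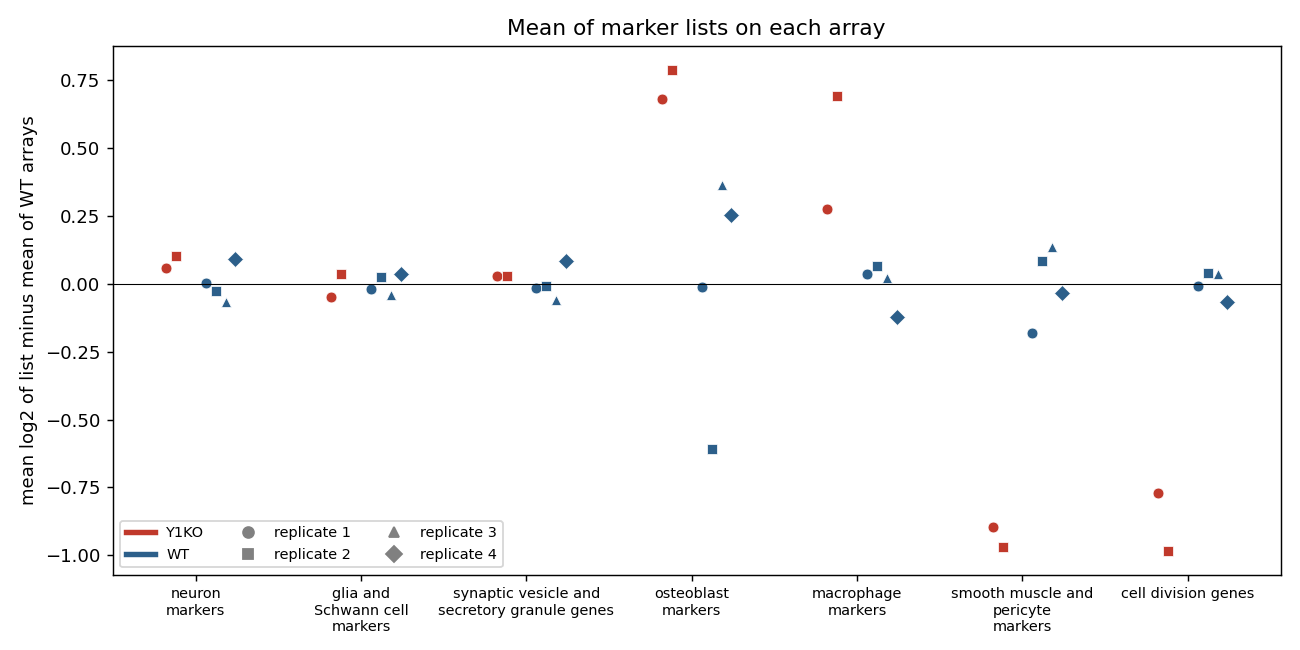
Mean log2 expression of 7 gene lists on each array, relative to the mean of the WT arrays (vertical axis), with Y1KO in red to the left of WT in blue and a symbol for each replicate number. Neuron, glia and synaptic lists overlap between genotypes, osteoblast and macrophage means lie higher and smooth muscle and cell division means lower in both Y1KO arrays, and the osteoblast mean of WT replicate 2 lies lowest.

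The genes whose values followed Tubb3, Stmn2 and Nrcam most closely were found by the root mean square difference between profiles over the 6 arrays, each taken relative to its WT mean. Nearest to Tubb3 were the small heat shock gene Hspb7, at 0.16, the protease gene Adamts18, at 0.17, Lrrn4cl, at 0.18, the serotonin receptor gene Htr2a, at 0.19, and the actin-filament gene Nebl, at 0.20. Nearest to Stmn2 were the amino acid transporter gene Slc7a8, at 0.21, the protocadherin gene Dchs1, at 0.22, the glycosyltransferase gene Galnt3, at 0.23, Lgi2, at 0.24, and the axon guidance gene Sema3d, at 0.25. Nearest to Nrcam were Cadps2, Col13a1, Mir692-1, Csdc2 and Synm, between 0.05 and 0.06. With each array left out in turn, 1 to 4 of the 5 genes nearest to Tubb3, 0 to 4 of those nearest to Stmn2 and 0 to 2 of those nearest to Nrcam stayed among the nearest 5. The arrays of the 2 genotypes differ in all of these genes, so the likeness is a description of 6 arrays.

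**Figure D5:**
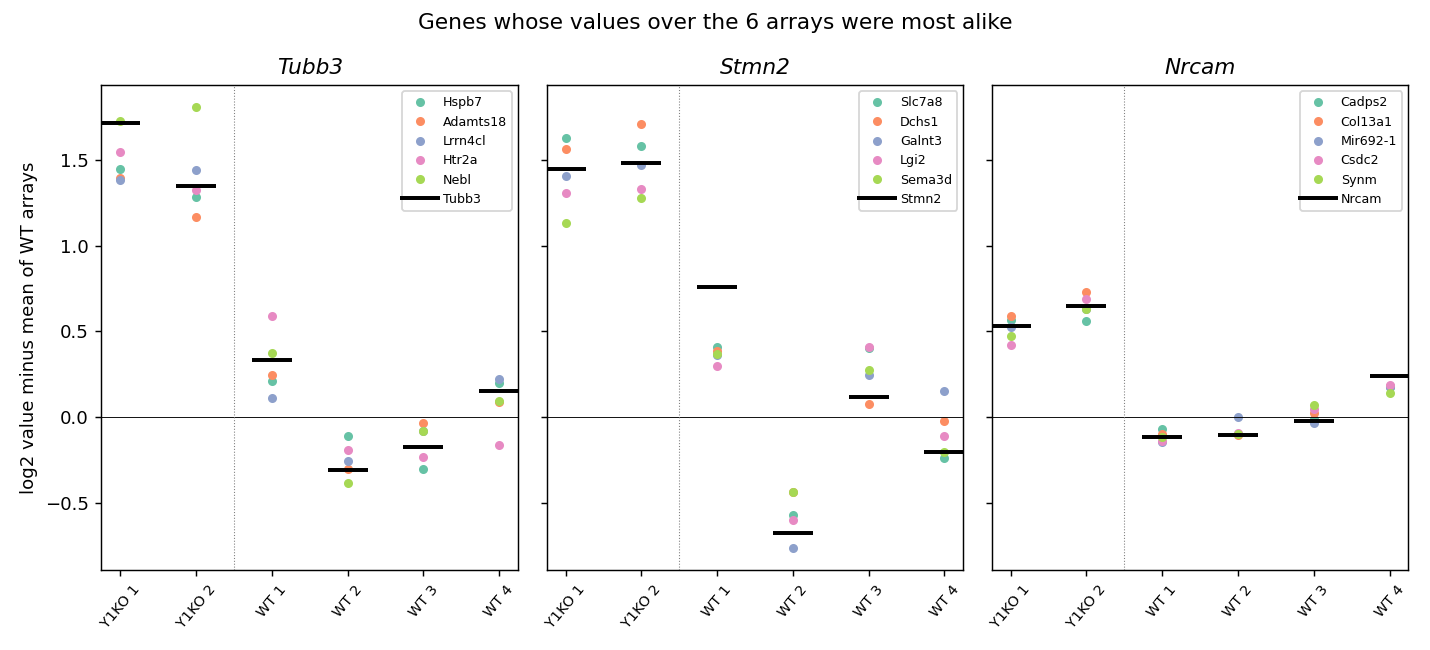
Log2 values minus the WT mean (vertical axis) on each array for Tubb3, Stmn2 and Nrcam (black bars) and the 5 genes nearest to each (coloured points), with the Y1KO arrays left of the WT arrays. The points of each panel lie near the bars on both Y1KO arrays and on the WT arrays, and WT replicate 2 is the lowest in the Stmn2 panel.

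The 10 genes lie on 10 different chromosomes. Tubb3 shares chromosome 8 with Npy1r, the gene of the Y1 receptor, with 567 measured genes between them. On chromosome 8, 62 genes rose and 71 fell of 955, which is 13.9%, beside 12.7% over all genes. Npy1r itself was at percentile 9.42 of all genes in WT and did not differ beyond its spread (-0.08, limma adjusted p = 0.768), so it checks the genotype labels neither way. The 3 measured genes on each side of Tubb3 held 0 called genes, and their differences ran from -0.13 to 0.17.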

How the data were processed

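RNA of sorted osteoblastic cells was measured on 6 single-channel arrays, 2 Y1KO and 4 WT, grouped by the sample titles. The authors deposited log2 expression values for 28815 probe sets, and the submitters' processing notes name RMA and limma, with no versions, settings or order. The sources used here name no genome build. Array medians lay between 5.3 and 5.37, sorted values ranged over 0.067 on average between arrays, and no 2 arrays were identical; no further normalization was applied. Arrays have no read depth, and their number limits the precision. Correlations over all genes were 0.9961 between Y1KO arrays, 0.9911 to 0.9958 among WT arrays and 0.9762 to 0.9875 across genotypes.

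Of the probe sets, 21780 had 1 symbol in the platform annotation, which can be old, 1605 had several and 5430 were not listed; the highest-mean probe set stood for each of 19935 genes. Y1KO was compared with WT in limma 3.58.1 (R 4.3.3, lmFit and eBayes), two-sided, with Benjamini-Hochberg adjustment over all genes and calls at an adjusted p under 0.05. The fit was tested on simulated data. A gene is said to rise or fall only where it was called.

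The members and lists were chosen with earlier results of these data known. From each list, up to 4 called genes in each direction by size are named (2 for cell division and osteoblast lists, 2 in all for markers of other cells), with fixed paralogs and defining markers; Tubb4b had no single-symbol probe set, and a further defining marker is not reported here. The alternatives were quantile normalization, median centring, leaving out genes dimmer than percentile 40 or 60, averaging the probe sets of a gene, testing every probe set, trend and robust options, no moderation, a replicate block and leaving out each array.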

Additional observations from a re-analysis of the deposited data

Results flagged for a closer look

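In 4 of 79 genes checked, among them 1 of the 10 described here, 1 WT array lay far from the other 3 by Dixon's test, which chance gives in about 5% of groups. Stmn1 read 10.34 in WT replicate 3, against 9.57 to 9.65 in the other WT arrays, and its second probe set showed the same array high. Rbfox3 read 4.56 in WT replicate 2, against 4.80 to 4.83 in the other WT arrays. L1cam read 5.26 in WT replicate 4, against 5.10 to 5.12. Mapre3 read 6.77 in WT replicate 1, against 6.90 to 6.91.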

How the results depend on the processing

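Over all genes 1217 were called higher and 1324 lower in Y1KO. Without moderation 140 and 204 were called, and leaving out 1 array gave 152 to 1172 higher and 335 to 1290 lower. Among the runs leaving out 1 array, counts were lowest without Y1KO replicate 2, which leaves 1 Y1KO array and no spread within Y1KO. For the 10 genes, the differences of Tubb3, Stmn2, Nrcam, Ncam1, Stmn4 and Stmn1 kept their sign in every alternative that measured them, while Map1b (-0.13 to 0.25), Gap43 (-0.15 to 0.15) and Mapt (-0.06 to 0.09) ran to both sides of zero. The Stmn3 difference was -0.0255 with the mean of its probe sets, which differ in direction. Centring on array medians moved the median difference over all genes by 0.02. Fixed paralogs and markers near zero changed sign without passing a test: Itga2b at -0.012 with the replicate block, and, with 1 array left out, Snap25 (-0.25 to 0.046), Sox10 (-0.033 to 0.107), Itga2b (-0.0032 to 0.092), Nfasc (-0.066 to 0.14), Ncam2 (-0.021 to 0.069), Map1s (-0.15 to 0.011) and Map2 (-0.059 to 0.078). Of 51 named genes called, 10 were still called without moderation, 19 without Y1KO replicate 1, 16 without Y1KO replicate 2 and 42 to 48 without 1 WT array. Replicate numbers are shared between genotypes only for 1 and 2, and the sources do not say that they mark a pairing. The deviations of same-numbered arrays correlated at 0.01 and -0.20. With 2 Y1KO arrays, their deviations from the Y1KO mean mirror each other, so these values cannot decide whether arrays were paired. With the replicate block 925 genes were called higher and 1256 lower, and 40 of the 51 kept their call. Dclk2, Ndel1, Kif3a, Epb41l2, Epb41l4b, Gfra1, Calm3, Cdk5r1, Hdac1, Ctdsp2 and Myh11 lost their calls with the block. Genes dimmer than the filters were not measured there.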

Other observations

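Some genes next to Stmn2 on chromosome 3 fell in Y1KO, opposite to Stmn2. Of the 6 nearest measured genes, 3 on each side, 3 fell: Il7, a cytokine gene of lymphocyte growth, by 1.81 (limma adjusted p = 0.00488), Pkia, an inhibitor of protein kinase A, by 1.45 (0.00279) and Zc2hc1a by 1.19 (0.0029). The other 3 did not pass: Hey1 was at -1.14, Mrps28 at 0.26 and Tpd52 at 0.21. Il7 and Pkia lost the call without Y1KO replicate 2. Next to Nrcam, the chaperone partner gene Dnajb9 and the phospholipase gene Pnpla8 rose by 0.91 and 0.65, and both lost the call without either Y1KO array, Pnpla8 also without WT replicate 1 or 4. These neighbours were named after their values were seen. Over the 60 neighbours of the 10 genes, 3 rose and 6 fell, beside 12.7% called over all genes.

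Of 23 neural transcription factors measured, 3 fell and 0 rose (1 higher at an unadjusted p under 0.05 by limma), where 6.64% and 6.1% of all genes did. Only 5 of the 23 were brighter than the median gene in WT, the 3 falling genes among them. The 3 were the early B-cell factor genes Ebf3, Ebf1 and Ebf2, by 2.16, 1.67 and 1.36. Ebf3 read 5.66 and 5.52 in Y1KO, against 7.34, 7.58, 8.42 and 7.67 in WT. EBF factors are also known from marrow stromal cells. All 3 were called without either Y1KO array.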
